A study of Mus musculus with 10 samples.

Results

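The chaperones of the endoplasmic reticulum (ER) and the core genes of its unfolded protein response were examined in Dicer1-mutant mouse liver. The group holds 10 genes, Hspa5, Hsp90b1, Calr, Canx, Pdia3, Pdia4, Pdia6, Dnajb9, Xbp1 and Atf6. They were chosen by gene symbol for their known function, with earlier results of these data known. All 10 were on the array, with 24 probe sets among the 25958 that were tested. The arrays came from 5 mutant livers and 5 control livers of mice aged 28 days, with 1 array for each animal. Mutants were DicerloxP/loxP;Afp-Cre+, that is, they carried floxed Dicer1 alleles and a Cre recombinase driven by Afp, a gene active in the fetal liver. The labels call the other livers control and give no genotype for them. All mice were of mixed strain and had been fasted for 5 hours. Afp is expressed in the hepatocyte lineage, and the RNA came from whole liver, which also holds cells of other lineages. In whole liver, fewer cells of a type and less RNA per cell cannot be told apart.

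Few probe sets of this gene group passed the test between the genotypes. Of the 24 probe sets, 1 was lower in mutants and 0 were higher at an adjusted p under 0.05 by limma, and 4 had an unadjusted p under 0.05. The call was that of Pdia6, a protein disulfide isomerase, at -0.45 on the log2 scale (SE 0.13, adjusted p = 0.0472). Among all probe sets tested, 13.2% were called, 7.39% lower and 5.8% higher in mutants, and 28.7% had an unadjusted p under 0.05. In the gene group 4.17% were called. For 23 of the 24 probe sets the 95% interval of the difference lay between -1 and 1 on the log2 scale, and the exception was Dnajb9, with an upper bound of 1.18. The median difference over the 24 probe sets was -0.14, against -0.01 over all probe sets, and 17 differences were below 0 (70.8%, against 53.5% of all probe sets) and 7 above it.

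The ER folds proteins that are secreted or placed in membranes, and hepatocytes, which secrete most plasma proteins, carry a large ER. When unfolded proteins build up, the membrane sensors IRE1, PERK and ATF6 are activated. ATF6 is cleaved to a transcription factor, and IRE1 splices the Xbp1 mRNA, whose product is another transcription factor. Both raise the transcription of chaperones, folding enzymes and components that remove misfolded proteins.

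The labels were checked on Dicer1, which was lower in every mutant on both of its probe sets, at 5.42 to 5.94 in mutants and 7.99 to 8.10 in controls on the first, and at 6.97 to 7.20 in mutants and 7.91 to 8.18 in controls on the other. Values are the authors' deposited log2 signals, for which no label states the background correction or scaling. Mutant replicate 5 stood nearer to the controls than the other mutants, at -15.4 on the first principal component, with the other 4 mutants between 33.4 and 62.2 and the controls between -45.8 and -25.6. Without it, 2115 probe sets were higher and 3194 lower in mutants, against 1505 and 1917 with it. In the gene group the counts without it were the same, 0 higher and 1 lower, and the Pdia6 difference was -0.47 (adjusted p = 0.0493).

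**Figure D1:**
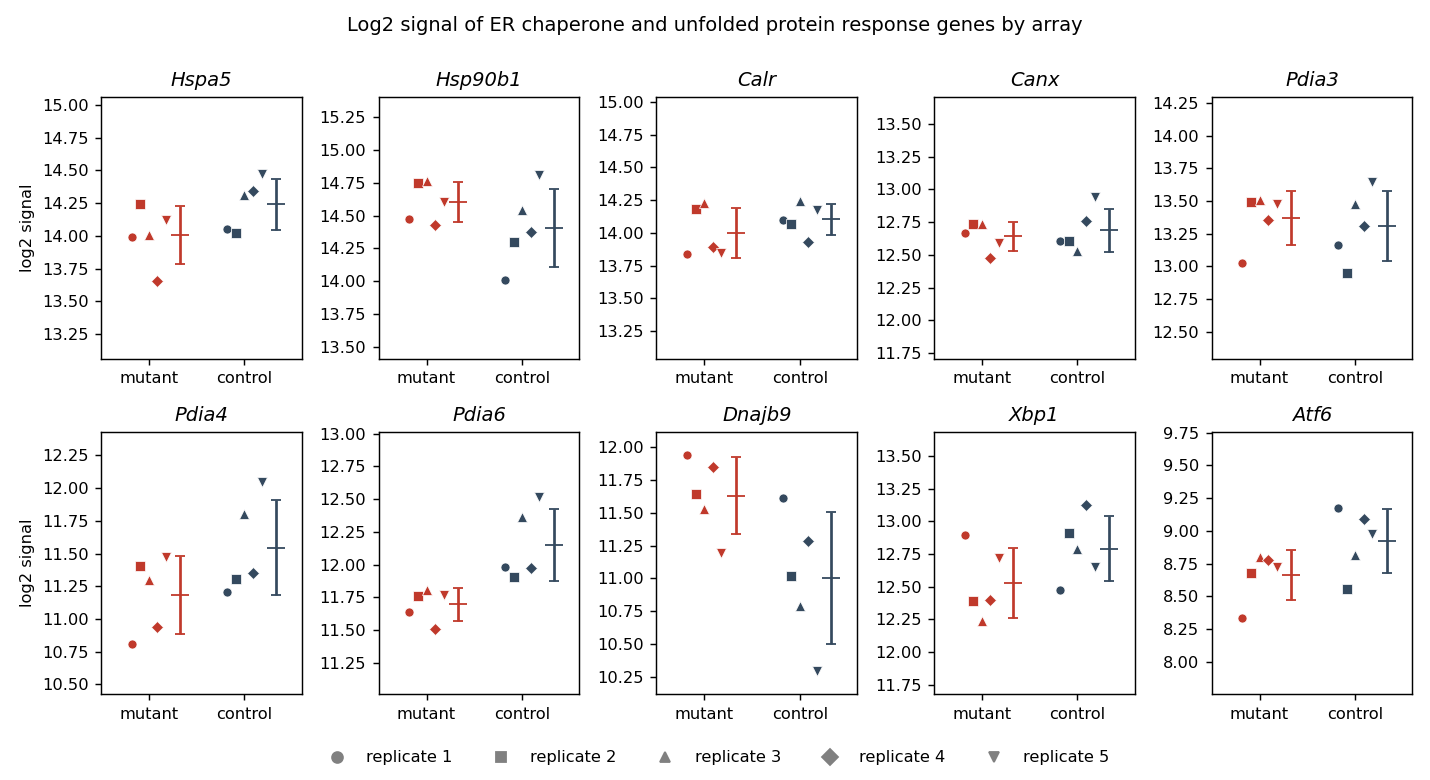
Log2 signal of the 10 genes, each on its probe set with the highest mean over all arrays, in 5 mutant (red, left) and 5 control (dark, right) livers. Points are single arrays, marker shapes give the replicate number, bars give mean and SD, and every panel spans 2 log2 units; groups are apart only for Pdia6, with mutants from 11.51 to 11.81 and controls from 11.90 to 12.52.

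Among the protein disulfide isomerases, which form and rearrange disulfide bonds, Pdia6 was the member that fell. Pdia6 read 11.64, 11.76, 11.81, 11.51 and 11.76 in mutant replicates 1 to 5, against 11.98, 11.90, 12.36, 11.97 and 12.52 in control replicates 1 to 5. Every mutant lay below every control. The means were 11.70 ± 0.12 in mutants and 12.15 ± 0.28 in controls (SD, n = 5 each), a mutant over control ratio of 0.731 with a 95% interval of the log2 difference from -0.74 to -0.17. The call lay close to the threshold. It passed without control replicate 2 (adjusted p = 0.046) or mutant replicate 5 (0.0493), and failed without control replicate 1 (adjusted p = 0.0615), 3 (0.102), 4 (0.0638) or 5 (0.0726) and without mutant replicate 1 (0.0958), 2 (0.0824), 3 (0.0715) or 4 (0.107), while the difference stayed between -0.52 and -0.36. The other Pdia6 probe set read 2.25 to 2.30 in mutants and 2.30 to 3.06 in controls, all below 3.60, the 25th percentile of all values, and has no reliable size. Groups also did not overlap on that probe set, so 2 of 24 probe sets (8.33%) had separate groups, against 10.3% of all probe sets, or 5.32% with the mutants lower.

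Pdia4, an ER isomerase also called ERp72, read 10.81, 11.41, 11.30, 10.94 and 11.47 in the mutants, against 11.21, 11.30, 11.80, 11.35 and 12.05 in the controls. Mutant replicates 1 and 4 lay below all controls and the rest overlapped with them. The difference was -0.36 (SE 0.20, 95% interval -0.80 to 0.08, adjusted p = 0.27) and did not pass. Pdia3, which acts on glycoproteins held by calnexin and calreticulin, differed by 0.06 (SE 0.14, 95% interval -0.26 to 0.38, adjusted p = 0.858). Its mutants ran from 13.02 to 13.50, inside the control range of 12.95 to 13.65. A dim probe set of Pdia3, at 4.16 to 4.85 in mutants and 4.30 to 4.49 in controls, differed by the same amount.

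Hspa5 encodes BiP, the HSP70 of the ER, which binds nascent chains and holds the stress sensors inactive. On its brightest probe set Hspa5 read 13.995, 14.245, 14.01, 13.66 and 14.13 in the mutants, against 14.05, 14.03, 14.31, 14.34 and 14.47 in the controls. Mutant replicates 1, 3 and 4 lay below all controls, and replicates 2 and 5 lay inside the control range. The difference was -0.24 (SE 0.13, 95% interval -0.52 to 0.05, adjusted p = 0.255). Its other probe sets differed by -0.28 and -0.14, and neither passed. The highest upper limit of its 3 intervals was 0.14.

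Hsp90b1, the HSP90 of the ER, had a positive difference on both its probe sets, and neither passed. It read 14.47, 14.75, 14.77, 14.43 and 14.60 in the mutants, against 14.01, 14.30, 14.54, 14.38 and 14.81 in the controls. All mutants lay above the control mean of 14.41, yet inside the control range. The differences were 0.20 (SE 0.14, adjusted p = 0.419) and 0.14 (SE 0.19, adjusted p = 0.696) on its probe sets.

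Calreticulin and calnexin are the lectin chaperones that retain glycoproteins until they are folded. The 3 Calr probe sets differed by -0.11, -0.10 and -0.13, with adjusted p from 0.395 to 0.582, and on the brightest the mutants ran from 13.84 to 14.23 and the controls from 13.93 to 14.25. The 3 Canx probe sets did not point the same way. Their differences were -0.05 (SE 0.09, adjusted p = 0.81), -0.28 (SE 0.12, adjusted p = 0.17) and 0.20 (SE 0.12, adjusted p = 0.323). On the second, mutants read 11.84 to 12.31 and controls 12.12 to 12.57, and on the third, which is dimmer, mutants read 7.82 to 8.18 and controls 7.55 to 8.04.

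Dnajb9 (ERdj4), a J-domain cochaperone of BiP and a target of XBP1, had the largest difference of the 24 probe sets and a positive one. It read 11.95, 11.64, 11.53, 11.85 and 11.20 in the mutants, against 11.62, 11.02, 10.79, 11.29 and 10.29 in the controls. Mutant replicates 1, 2 and 4 lay above every control, and all 5 mutants lay above the control mean of 11.001. The difference of 0.63 (SE 0.24, 95% interval 0.08 to 1.18, a ratio of 1.55) did not pass the test (adjusted p = 0.122). The controls alone spanned more than 1 log2 unit, with an SD of 0.29 in the mutants and 0.50 in the controls.

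Of the transcription factors, Xbp1 had 4 probe sets with differences of -0.26, -0.23, -0.27 and -0.26, none past the threshold (adjusted p from 0.244 to 0.539). On the brightest, Xbp1 read 12.89, 12.39, 12.24, 12.40 and 12.72 in the mutants, against 12.48, 12.91, 12.79, 13.12 and 12.65 in the controls. Mutant replicates 2, 3 and 4 lay below all controls, and replicates 1 and 5 lay inside the control range. Splicing of the Xbp1 mRNA was not measured. Atf6 differed by -0.26 (SE 0.13, adjusted p = 0.229), -0.01 (SE 0.10, adjusted p = 0.985) and 0.03 (SE 0.10, adjusted p = 0.919) on its 3 probe sets. Cleavage of the ATF6 protein is not measured by an expression array.

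**Figure D2:**
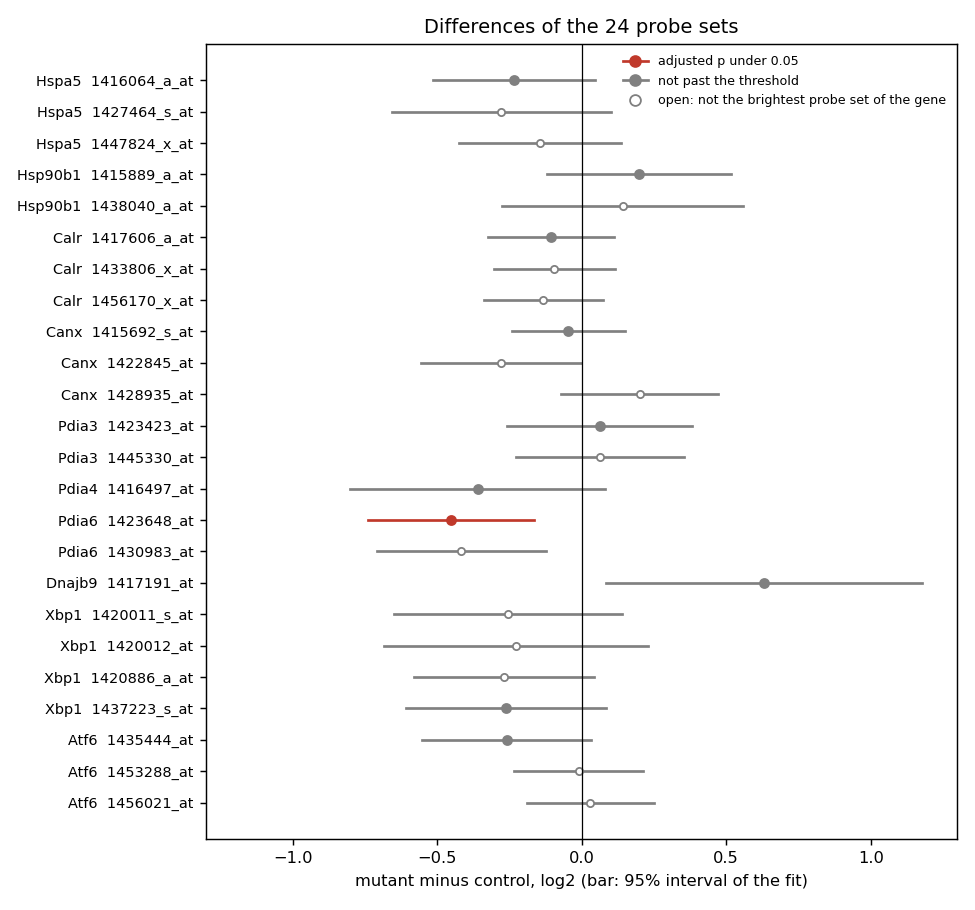
Mutant minus control difference in log2 signal for all 24 probe sets, with bars for the 95% interval of the limma fit. The red point, Pdia6 at -0.45, is the probe set past the threshold; the differences run from -0.45 to 0.63, and open points mark probe sets other than the brightest of a gene.

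The promoters of 5 of these genes share a regulatory sequence. The ER stress response element is a CCAAT box and a CCACG box with 9 bases between them, to which NF-Y and ATF6 bind. It was searched on both strands of the RefSeq promoter windows of assembly GRCm38.p6, from 250 bases before to 50 after each annotated start. Of 9 windows of the group, 5 held it, those of Hspa5, Hsp90b1, Calr, Canx and Pdia6. Of 32851 windows in all, 39 held it (0.119%). The genes were chosen for known functions in the ER and its stress response, so these shares are a description and no independent support. Hsp90b1 held 2 copies, on opposite strands. The 6 copies are printed 5′ to 3′ on the strand that holds the motif, with its fixed boxes in capitals, to show how far the spacer varies.
Hspa5, chr2:34772025-34772043, plus strand: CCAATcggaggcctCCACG
Hsp90b1, chr10:86705638-86705656, minus strand: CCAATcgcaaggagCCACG
Hsp90b1, chr10:86705533-86705551, plus strand: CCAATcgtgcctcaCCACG
Calr, chr8:84847075-84847093, plus strand: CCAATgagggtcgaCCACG
Canx, chr11:50325800-50325818, minus strand: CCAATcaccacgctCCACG
Pdia6, chr12:17266491-17266509, plus strand: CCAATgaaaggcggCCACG

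The spacers differed between all 6 copies, and their positions ran from -212 to -47 relative to the start. The boxes occur alone much more often: CCAAT stood in 8 of the 9 windows and in 37.4% of all windows, and CCACG in 7 of the 9 and in 32.8% of all. Each full element also counts as a match of both boxes. The second ER stress response element, ATTGG and CCACG with 1 base between them, was in 0 of the 9 windows and in 0.0365% of all. TGACGTGG, a site of XBP1 and ATF6, was in 0 of the 9 and in 0.676% of all. Pdia3, Pdia4, Dnajb9 and Xbp1 had no full element in these windows, which says only that these letters are not there. The whole windows are given for Hspa5, the reference gene of the response, for Pdia6, which fell in the mutants, and for Dnajb9, whose difference had the opposite sign. Capitals mark the boxes of the full element, and Dnajb9 has none to mark.
Hspa5 promoter, chr2:34771840-34772139, plus strand: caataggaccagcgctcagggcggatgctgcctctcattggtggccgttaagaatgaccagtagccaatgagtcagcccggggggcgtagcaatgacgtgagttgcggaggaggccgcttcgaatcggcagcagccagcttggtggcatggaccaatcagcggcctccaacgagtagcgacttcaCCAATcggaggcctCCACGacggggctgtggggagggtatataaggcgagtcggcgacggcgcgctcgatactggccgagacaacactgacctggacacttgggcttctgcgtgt
Pdia6 promoter, chr12:17266339-17266638, plus strand: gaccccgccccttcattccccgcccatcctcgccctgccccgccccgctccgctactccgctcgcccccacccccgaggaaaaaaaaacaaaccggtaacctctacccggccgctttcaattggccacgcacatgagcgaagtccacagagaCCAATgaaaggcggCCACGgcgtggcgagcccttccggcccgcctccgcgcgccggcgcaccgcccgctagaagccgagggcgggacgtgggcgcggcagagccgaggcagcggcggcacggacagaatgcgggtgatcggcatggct
Dnajb9 promoter, chr12:44210019-44210318, minus strand: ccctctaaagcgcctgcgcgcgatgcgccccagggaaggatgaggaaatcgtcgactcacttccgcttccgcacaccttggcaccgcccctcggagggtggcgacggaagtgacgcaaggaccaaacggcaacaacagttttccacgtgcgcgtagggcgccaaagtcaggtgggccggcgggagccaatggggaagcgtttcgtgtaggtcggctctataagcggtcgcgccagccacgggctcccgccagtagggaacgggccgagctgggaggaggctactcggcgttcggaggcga

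Among the 5 genes with the element, Pdia6 passed the test and Hspa5, Hsp90b1, Calr and Canx did not, with differences of -0.45, -0.24, 0.20, -0.11 and -0.05 in that order on the brightest probe sets. Their differences had both signs.

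**Figure D3:**
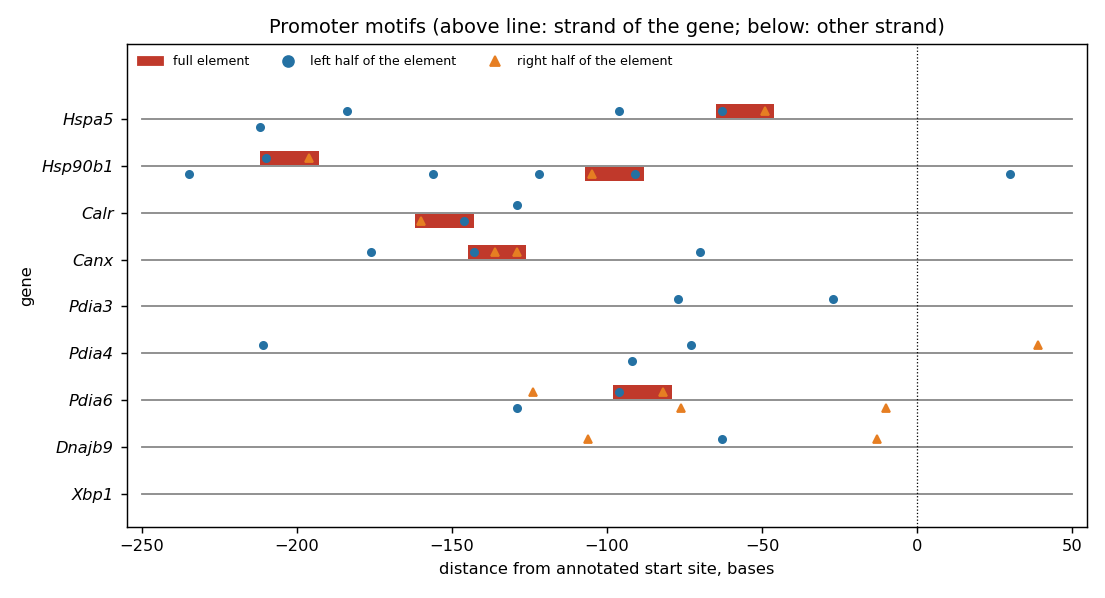
Positions of the full element (red boxes) and of its CCAAT (blue circles) and CCACG (orange triangles) boxes in the promoter windows of 9 genes, in bases from the annotated start; matches on the strand of the gene lie above each line and those on the other strand below it. The full element stands in 5 windows, with 2 copies at Hsp90b1.

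Around their group means, the chaperones correlated over the pooled arrays. After the group mean was subtracted from each value, all 21 pairs among Hspa5, Hsp90b1, Calr, Canx, Pdia3, Pdia4 and Pdia6 correlated positively over the 10 arrays, with Pearson r from 0.25 to 0.90. The highest was that of Pdia4 with Pdia6 (r = 0.90, Spearman rho = 0.73), at 0.92 without the 2 arrays farthest from the median. With the 2 farthest arrays left out in each pair, 18 of the 21 remained positive, and the 3 that did not involve Canx. Control replicate 5 was the highest control for 6 of the 7 genes, with Calr as the exception, and mutant replicate 4 was the lowest mutant for 4 of them. These correlations describe 10 arrays that also share their labelling and scaling. After subtraction of each array's 75th percentile they ran from 0.36 to 0.89.

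Dnajb9 ran against the other chaperones. Its r with the 7 genes lay between -0.90 and -0.31, lowest with Pdia4 (r = -0.90, rho = -0.94, and -0.85 without the 2 farthest arrays). With Canx it was -0.41, and 0.14 without the 2 farthest arrays. Control replicate 5, where Pdia4 stood 0.51 above its group mean, had Dnajb9 0.71 below its own, at -0.71. Control replicate 1 had Dnajb9 at 0.62 and Pdia4 at -0.33, and mutant replicates 1 and 5 had Dnajb9 at 0.31 and -0.44 with Pdia4 at -0.38 and 0.29. With the 75th percentile subtracted the r between Dnajb9 and Pdia4 was -0.83, and the r with the 7 genes ran from -0.83 to -0.07. Xbp1 correlated with the 7 genes between -0.72 and 0.15 and Atf6 between -0.03 and 0.56.

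**Figure D4:**
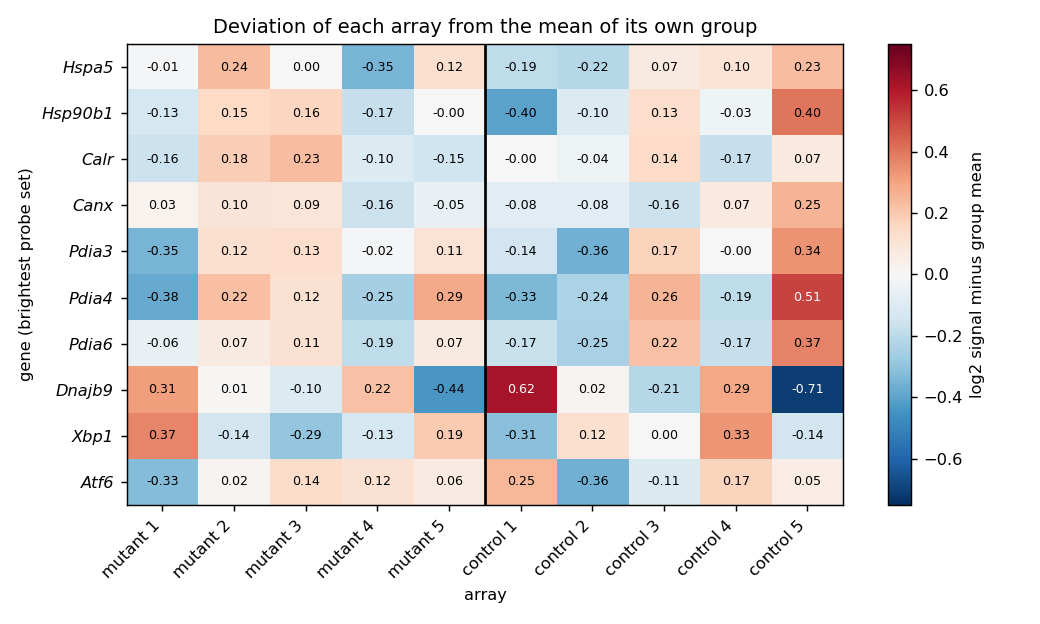
Log2 signal of each gene minus the mean of its own group, for 5 mutant arrays (left of the line) and 5 control arrays (right). Control replicate 5 is red for Pdia4 (0.51) and blue for Dnajb9 (-0.71), and the rows of the disulfide isomerases change colour together.

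The genes most like Hspa5 in this pattern were sought among 6065 other genes with a mean above the median of all genes. The first 5 by Pearson r of the group-centred values over 10 arrays were Txndc5, an ER thioredoxin (0.96), the nuclease-domain protein Snd1 (0.95), Ssr3, a subunit of the translocon-associated complex (0.92), Sec13, a coat component of vesicles that leave the ER (0.91), and Mis18a, a centromere protein (0.90). Without the 2 arrays farthest from the Hspa5 median these were 0.96, 0.93, 0.79, 0.83 and 0.77. None of the 5 was called between the genotypes, and Txndc5 came closest (-0.50, SE 0.15, adjusted p = 0.0514). The r values are the highest of many and are given as a description.

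Other genes of ER protein handling were grouped into 5 lists and read on the brightest probe set of each gene, where 16.8% of all 12366 genes were called, 7.29% higher and 9.56% lower in mutants, with a median difference of -0.01. Of 22 other ER folding factors, 1 was higher and 3 were lower (18.2% called), with a median difference of -0.39 and 16 differences below 0. Erp44, which retains client proteins in the early secretory pathway, fell by 0.37 (SE 0.06, adjusted p = 0.00873), although its other probe set differed by 0.38. The prolyl isomerase Fkbp2 fell by 0.69 (SE 0.15, adjusted p = 0.02), reading 10.61, 10.54, 10.73, 10.36 and 11.26 in the mutants, against 11.28, 11.42, 11.44, 11.42 and 11.39 in the controls. Mutant replicate 5 lay just under the lowest control, and the other mutants stood clearly below. The BiP nucleotide exchange factor Sil1 was lower by the test at -0.55 (adjusted p = 0.0473), a call that held without control replicate 4 or mutant replicate 5 and was lost without any other array (adjusted p from 0.0849 to 0.0995). Sil1 was also not called after quantile normalization (0.0547), with array weights (0.0898) or with a replicate block (0.0829). Ero1a, which oxidises the isomerases, rose by 0.51 (SE 0.09, adjusted p = 0.0127) on its brightest of 3 probe sets, and the others reached down to -0.04.

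Of these 22 genes, 18 did not pass. Among them, Sdf2l1, an ER-resident protein, had the lowest difference of the list (-0.93, SE 0.38, adjusted p = 0.142), and the disulfide isomerase Pdia5 was on the other side of 0 (0.46, SE 0.14, adjusted p = 0.0548). Both were named after their values were seen. Sdf2l1 read 8.32, 8.94, 9.49, 8.65 and 9.89 in the mutants, against 9.52, 9.54, 10.38, 9.52 and 10.94 in the controls. Mutant replicate 5 overlapped with the controls, and the other 4 mutants lay below all of them.

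Of 15 sensors and regulators of the response that were measured, 4 were higher and 1 was lower (33.3% called), with a median difference of 0.03. Chac1, a glutathione-degrading enzyme induced through ATF4, fell by 2.03 (SE 0.46, adjusted p = 0.0234), the largest change in these 5 lists. It read 6.67, 5.02, 6.497, 5.38 and 7.60 in the mutants, against 8.20, 7.94, 8.12, 8.85 and 8.20 in the controls. Every mutant lay below every control, and mutant replicate 5 was nearest to them. The Chac1 call was lost without control replicate 3 (adjusted p = 0.0516) or 4 (0.0563) or mutant replicate 4 (0.0561), and with a replicate block (0.0514). Atf6b, the relative of Atf6, was higher by 0.65 (SE 0.16, adjusted p = 0.0301), with adjusted p from 0.0522 to 0.0658 when replicate 1, 2 or 4 of either group was left out. Wfs1, an ER membrane protein, rose by 0.39 (SE 0.07, adjusted p = 0.0141). The liver transcription factor Creb3l3 was at 0.30 (adjusted p = 0.0432). Its call held without control replicate 4 or mutant replicate 5. It was lost without any other array (up to 0.0988) or with the 75th percentile subtracted (0.0532). The protease Mbtps2, outside the naming rule and named after its value was seen, was at 0.42 (adjusted p = 0.0496). The Mbtps2 call was lost without any 1 of control replicates 1 to 4, with a replicate block and with another variance model. Ern1, which encodes IRE1, differed by 0.03 (SE 0.11, adjusted p = 0.922) and Eif2ak3, which encodes PERK, by 0.55 (SE 0.24, adjusted p = 0.172). Atf4, Ddit3 and Trib3, named like Atf3 after their values were seen, differed by -0.20, -0.07 and -1.33 (adjusted p = 0.463, 0.825 and 0.15). Atf3 had the highest difference of the list (1.13, SE 0.35, adjusted p = 0.0638) and did not pass. Its mutants read 4.08 to 6.22 and its controls 3.43 to 3.77, near the 25th percentile of all values. Leaving out mutant replicate 1 or 3 gave 3 calls, mutant replicate 2 or any of control replicates 1 to 4 gave 2, and mutant replicate 4 gave 1. Without mutant replicate 5 there were 7.

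Of 18 genes of ER-associated degradation, which removes misfolded proteins, 1 was higher and 3 were lower (22.2% called), with a median of -0.13. The retrotranslocation proteins Derl1 and Derl2 both fell, Derl1 by 0.39 (SE 0.06, adjusted p = 0.0085) and Derl2 by 0.78 (SE 0.15, adjusted p = 0.0143). The 4 Derl1 probe sets ranged from -0.39 to 0.13, and the 2 of Derl2 from -0.86 to -0.78. Edem2, a mannosidase-like protein, was at -0.70 (adjusted p = 0.0488), held only without mutant replicate 5 (up to 0.101 without any other array). The ubiquitin-conjugating enzyme Ube2j1 rose by 0.49 (adjusted p = 0.0206) on 1 probe set and differed by -0.52 on the other, a call that ended when control replicate 3 (0.0514) or mutant replicate 4 (0.0505) was left out. Without either of these 2 arrays 2 genes of the list were called.

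Of 23 genes of translocation into the ER and N-glycosylation, 1 was higher and 5 were lower (26.1% called), with a median of -0.21 and 19 differences below 0. Sec61b, a subunit of the translocation channel, fell by 0.89 (SE 0.16, adjusted p = 0.0124). It read 11.73, 11.43, 11.57, 11.08 and 12.04 in the mutants, against 12.38, 12.46, 12.57, 12.27 and 12.58 in the controls. The groups did not overlap, and mutant replicate 5 was the highest mutant. Ssr4, of the translocon-associated complex, fell by 0.74 (SE 0.11, adjusted p = 0.00747), a fall seen only on the brighter of its 2 probe sets (-0.01 on the dimmer). The signal peptidase subunit Sec11a fell by 0.28 (SE 0.05, adjusted p = 0.014). Stt3b, a catalytic subunit of the oligosaccharyltransferase, was higher at 0.46 (adjusted p = 0.0335) but at -0.37 on a second probe set, and the call held without control replicate 5 or mutant replicate 3 or 5 (up to 0.077 without any other array). When control replicate 3 or mutant replicate 1, 2 or 4 was left out, 3 genes were called.

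Of 19 genes of ER exit and retrieval, 3 were higher and 1 was lower (21.1% called), with a median of -0.04. Sec23a, a component of the coat of vesicles that leave the ER, rose by 0.47 (SE 0.09, adjusted p = 0.0141), with mutants from 11.90 to 12.25 and controls from 11.46 to 11.83. Sec16b and Sec24c, of the same exit sites and coat, were at 0.38 (adjusted p = 0.035) and 0.36 (adjusted p = 0.0354). The Sec16b call held without control replicate 5 or mutant replicate 5 and the Sec24c call without control replicate 2 or mutant replicate 5 (up to 0.0822 and 0.0793 without any other array), and Sec24c also failed with the 75th percentile subtracted (0.0532). The cargo lectin Lman2 was at -0.53 (adjusted p = 0.0473), held only without mutant replicate 5 (up to 0.108 otherwise). Leaving out mutant replicate 1 or 3, or any of control replicates 1, 3 and 4, gave 1 call, and leaving out mutant replicate 2 or 4 or control replicate 5 gave 2.

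**Figure D5:**
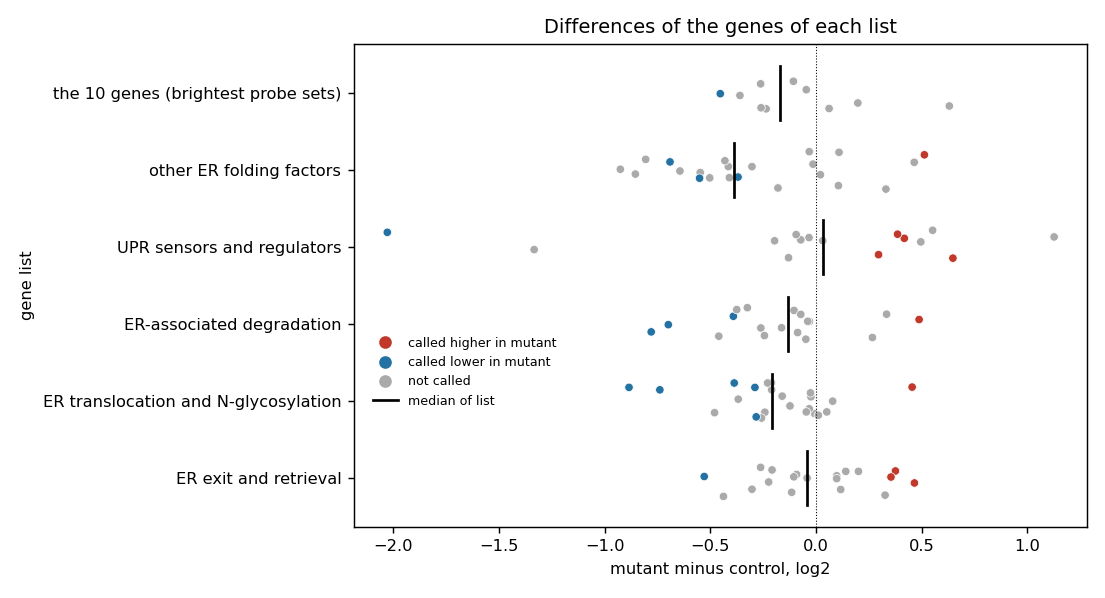
Mutant minus control difference in log2 signal of each gene on its brightest probe set, for the 10 genes and for 5 further lists; red and blue points were called higher and lower in mutants, grey points were not called, and black lines are medians. The list of other ER folding factors has the lowest median (-0.39), and Chac1 is the point at -2.03.

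Markers of other liver cells were read in the same way, against the 16.8% of all genes that were called. Of 10 Kupffer cell and macrophage markers, 5 were higher in mutants (50%) and 0 lower, and the summed level ran from 13.85 to 14.31 log2 units in mutants and from 12.89 to 13.77 in controls. Of 8 stellate cell markers, 4 were higher (50%) and 0 lower, at 14.49 to 15.09 in mutants and 14.11 to 14.32 in controls. Of 7 sinusoidal endothelial markers, 1, Lyve1, was lower (14.3%), and the summed levels overlapped, at 12.42 to 12.64 in mutants and 12.58 to 12.95 in controls. All 7 endothelial differences were below 0, against 53.5% of those of all probe sets, and their median was -0.19. The 6 hepatocyte markers, the 5 biliary markers and the 2 erythroid markers had 0 calls. Plasma cells, rich in ER chaperones, left little trace: the defining markers Jchain, Mzb1 and Pou2af1 averaged 3.01, 2.04 and 3.20 in mutants and 2.92, 2.001 and 3.22 in controls, all below 3.60, and 0 of 5 B and plasma cell markers were called. The part of the macrophage and stellate marker differences in the values above was not tested.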

How the data were processed

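Total RNA (100 ng per liver) was amplified and biotin-labelled, per the labels' protocols. The authors deposited 1 table of log2 signals per probe set, from 0.27 to 16.7, with array medians between 6.40 and 6.67. The log base was read from the values, and no label states the summary or normalization steps. Of 25995 probe sets, 37 control probe sets were left out, and 21613 carried a single symbol in the platform annotation. Mutant minus control was tested for all 25958 probe sets in a two-sided moderated linear model without a block (limma 3.58.1, functions lmFit and eBayes, R 4.3.3), with Benjamini-Hochberg adjustment over all of them and a threshold of 0.05. An adjusted p comes from this model unless its sentence names another setting or an array left out. In simulated data for the 25958 probe sets, 50 were changed by each of 0.5, 1, 2 and 3 on the log2 scale. The test recovered 22, 36, 48 and 50 of them in that order, with 13 false calls among 169. In the measured data 3422 probe sets were called. The adjusted threshold depends on how many probe sets pass, so these recoveries do not give the power of the real comparison.

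A gene outside the 10 was read on its probe set with the highest mean. The genes and lists were chosen with earlier results of these data known, so they are no independent support. The naming rule took all probe sets of the 10 genes, Dicer1, up to 4 called genes of each list with the smallest p, and the 5 genes most like Hspa5. The labels give no batch, litter or sex, so none was tested, and a p-value reflects only how much these animals varied. The alternatives were 2 rescalings, a filter on dim probe sets, 1 probe set for each gene, other variance models, array weights, a replicate block and leaving out each array.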

Additional observations from a re-analysis of the deposited data

Results flagged for a closer look

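In 6 of 92 groups of 5 arrays, the highest or lowest value stood apart from the other 4 by more than Dixon's 95% limit, where chance gives about 1 in 20. Among the 10 genes this was Atf6 in mutant replicate 1, at 8.34 on its brightest probe set, with the other mutants from 8.68 to 8.80. Among the listed genes, Derl2 was 12.25 in mutant replicate 5, with the other mutants from 11.42 to 11.64, and Sec24c was 10.51 in mutant replicate 5, with the others from 10.82 to 10.90. Among controls, Chac1 was 8.85 in control replicate 4 (others 7.94 to 8.20), Creb3l3 was 11.85 in control replicate 4 (others 11.62 to 11.68), and Erp44 was 11.24 in control replicate 5 (others 11.05 to 11.10).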

How the results depend on the processing

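Of the 24 probe sets, 0 were called higher in each fit without 1 array, and 0 to 1 lower. Without control replicate 4 the 1 call was that of the dim Pdia6 probe set (adjusted p = 0.0315), which has no reliable size. Over all probe sets the fits without 1 array gave 776 to 2115 higher and 770 to 3194 lower. For the lists they gave 3 to 6 folding factors, 1 to 7 sensors and regulators, 2 to 6 degradation genes, 3 to 9 translocation genes and 1 to 4 exit genes called. The Pdia6 call held under the 7 other settings (adjusted p from 0.0363 to 0.0491). The replicate numbers match between groups, but the deviations of same-numbered arrays correlated above 0.1 in only 2 of 5 pairs (r from -0.18 to 0.15), and 1 of 5 mutants correlated best with the control of its number. With a replicate block, 1 member probe set was higher (Dnajb9, adjusted p = 0.0278), 907 of all probe sets were higher, and 2 sensors and regulators were called; the cause was not tested. Among the listed genes under the naming rule, the block also ended 6 calls. These were Sil1 (0.0829), Chac1 (0.0514), Creb3l3 (0.0729), Stt3b (0.053), Sec23a (0.0544) and Sec16b (0.0693). Outside the rule, the call of Mbtps2 was lost as well, and the other listed genes were not followed one by one. Differences near 0 changed sign with no call. An Atf6 probe set turned to 0.011 under quantile normalization and 0.019 with the 75th percentile subtracted, and ran from -0.085 to 0.043 without 1 array. Likewise another of Atf6 ran from -0.029 to 0.082, those of Pdia3 from -0.028 to 0.148 and from -0.042 to 0.131, and that of Canx from -0.086 to 0.017. Of 766 recomputed single differences, 666 kept direction and side of the threshold, 86 lost the call, 2 gained it and 12 changed sign. Precision is limited by 5 arrays in each group.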

Other observations

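Outside the 10 genes, the full ER stress response element stood in the promoter windows of 10 further genes with a named probe set, among 37 genes with the element in all. Of these 10, 0 were higher and 1, the acetyl-CoA carboxylase Acacb, was lower in mutants (-1.13, SE 0.20, adjusted p = 0.0115), and 8 had a difference below 0, with a median of -0.20. Over all genes 16.8% were called, 9.56% lower, and the median difference was -0.01. The share below 0 was taken over all probe sets, not over genes, and was 53.5%. Creld2, Dnajc3 and Ero1b, which act in ER protein folding, differed by -0.64, -0.42 and -0.30 (adjusted p = 0.4, 0.117 and 0.352) and did not pass on their brightest probe sets. The second Ero1b probe set was called lower, at -1.34. Their group-centred values correlated with those of Hspa5 at r = 0.78, 0.67 and 0.85 over the 10 arrays, given as a description. These were the highest r of the 10 genes, whose median was 0.27, against 0.07 over all genes. Spats2l had the largest absolute difference of the 10 and went the other way (1.21, SE 0.36, adjusted p = 0.0569), with r = -0.57. The degradation gene Syvn1 differed by -0.10 (adjusted p = 0.642), with r = 0.195.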
